A study of Mus musculus with 16 samples.

Results

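Fatty acid oxidation was followed in differentiating fat cell precursors through 30 genes, picked by gene symbol from the 41325 genes of each deposited table. They were 5 genes of the carnitine shuttle, 4 acyl-CoA dehydrogenases, 6 genes for the steps from hydration to thiolysis, 4 auxiliary enzymes for unsaturated chains, 3 genes of the electron transfer flavoprotein system and 8 peroxisomal genes. All 30 were found in both tables and passed the filter on low counts in every comparison. The cells were immortalized preadipocytes, fat cell precursors grown in culture, of wild-type C57Bl6/J mice, which had been left untreated or had been given interleukin-13 (IL-13), a cytokine of type 2 immunity, for 16 h. Each arm was taken at day 0 and at day 6 of differentiation, so that the groups were untreated cells at day 0, IL-13 pre-treated cells at day 0, untreated cells at day 6 and IL-13 pre-treated cells at day 6. Each group had 4 libraries of polyadenylated RNA, with totals between 15253031 and 18112087 counts. The labels name no further agent, do not say whether the cells were 1 clone, and do not tell whether the libraries of a group were separate cultures, so p-values here measure the spread between libraries, which may be technical. Each day also had its own deposited table, and the day and anything that differed in the handling of its libraries cannot be told apart.

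Fatty acids enter the mitochondrion as acylcarnitines, which the carnitine palmitoyltransferase 1 enzymes make at the outer membrane, a step that malonyl-CoA blocks. A carrier takes them across the inner membrane, CPT2 turns them back into acyl-CoA, and a cycle of dehydrogenation, hydration, dehydrogenation and thiolysis then shortens the chain, with electrons passing through the electron transfer flavoprotein to the respiratory chain. Peroxisomes shorten very long chains by a cycle of their own, and in adipose tissue the pathway is best known from brown and beige adipocytes, which burn fat for heat.

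The labelled cell state was checked against marker genes, on the deposited TPM values (counts scaled to gene length and library). The summed level of 10 adipocyte markers was 215 to 244 TPM in the untreated libraries at day 0 and 21174 to 23031 TPM at day 6, and with IL-13 it was 185 to 203 TPM and 21657 to 22389 TPM. Lep was at 0 in every day 0 library and near 0 at day 6, at 0.326 TPM in untreated and 0.246 TPM in IL-13 libraries on average. The sum of 10 preadipocyte markers was 4771 to 6315 TPM at day 0 and 802 to 1015 TPM at day 6 in untreated cells, and 6639 to 7125 TPM and 737 to 972 TPM in IL-13 pre-treated cells. At day 0 most of it was Col1a1, with means of 4249 TPM untreated and 5499 TPM with IL-13. By day 6, 6 of 9 tested markers fell and 1 rose in untreated cells, and 8 fell and 0 rose with IL-13. Of all tested genes 39% and 40.3% were called lower. Dpp4 was at 0 in every day 6 library, but already near 0 at day 0, at 0.0167 TPM untreated and 0.00844 TPM with IL-13. Markers of other cells were low: in any library the sum was at most 20.1 TPM for 8 macrophage genes (Adgre1 at 0 throughout), 1.95 TPM for 6 endothelial genes and 23.7 TPM for 7 muscle genes, with Myod1 and Ckm at 0 throughout. In such bulk RNA, fewer cells of a type and less RNA per cell cannot be told apart.

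For the genes whose pattern the results turn on, sequence upstream of the start was read from RefSeq (GRCm38.p6), to show what lies before genes that rose most, that share a start region, or that fell. A promoter window, 250 bases before to 50 bases after the start, was matched for 24 of the 30 genes (25 windows), and not for Cpt1b, Decr1, Crat, Hsd17b4, Acaa2 and Abcd2. On either strand, capitals mark GGGCGG (the GC box), the sequence CCAAT (the CAAT box), the nuclear receptor half-site AGGTCA and the GABP site CCGGAAG; only the bases before the start are shown. Hadha and Hadhb, the divergent genes of the mitochondrial trifunctional protein, share the stretch chr5:30155003-30155230, printed on the plus strand, which lies in both windows. Their starts are 272 bases apart in RefSeq and 85 bases apart in the deposited tables. Cpt1a is shown from chr19:3323051-3323300 on the plus strand, Ehhadh from chr16:21787835-21788084 and Pex11a from chr7:79743132-79743381, both on the minus strand.
Hadha and Hadhb: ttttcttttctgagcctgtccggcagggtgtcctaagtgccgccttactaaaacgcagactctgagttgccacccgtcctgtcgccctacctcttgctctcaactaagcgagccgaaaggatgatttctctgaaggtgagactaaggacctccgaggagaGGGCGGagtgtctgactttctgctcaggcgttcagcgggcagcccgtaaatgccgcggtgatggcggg
Cpt1a: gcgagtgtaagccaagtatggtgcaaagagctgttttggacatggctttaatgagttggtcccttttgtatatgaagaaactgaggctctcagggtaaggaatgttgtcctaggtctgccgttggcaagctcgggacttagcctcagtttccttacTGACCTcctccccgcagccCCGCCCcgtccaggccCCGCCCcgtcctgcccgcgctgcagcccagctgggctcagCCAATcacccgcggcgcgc
Ehhadh: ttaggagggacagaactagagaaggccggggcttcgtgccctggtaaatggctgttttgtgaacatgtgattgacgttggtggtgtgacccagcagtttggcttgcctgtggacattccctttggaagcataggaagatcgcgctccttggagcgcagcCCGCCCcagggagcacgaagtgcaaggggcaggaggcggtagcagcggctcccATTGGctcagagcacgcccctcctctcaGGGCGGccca
Pex11a: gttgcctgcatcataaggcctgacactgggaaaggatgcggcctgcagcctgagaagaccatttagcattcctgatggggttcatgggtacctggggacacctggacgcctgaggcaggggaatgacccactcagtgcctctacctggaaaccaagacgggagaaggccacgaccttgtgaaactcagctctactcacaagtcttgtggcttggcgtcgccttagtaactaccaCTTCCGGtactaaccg

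The Cpt1a stretch held 2 GC boxes, 1 CAAT box and 1 half-site, the Ehhadh stretch 2 GC boxes and 1 CAAT box, the shared Hadha and Hadhb stretch 1 GC box, and the Pex11a stretch 1 GABP site. Over the 25 whole windows, the GC box was found for 20 genes, in 80% of windows against 35.7% of 32851 mouse promoter windows of that length, and the CAAT box for 9 genes, in 36% against 37.4%. The half-site was found for Acadm, Acadvl, Cpt1a, Echs1 and Scp2, in 20% of windows against 16.3%. NRF1 sites (GCGCA, any base, then GCGC) were found for Abcd3, Etfb and Etfdh, in 12% against 4.60%, and GABP sites for Cpt2, Pex11a and Slc25a20, in 12% against 8.86%. Neither the element bound by PPAR and RXR, which repeats the half-site after any 1 base, nor the ERR element (TCAAGGTCA), which ends in the half-site, was found in any of the 25 windows, and they were found in 0.0396% and 0.423% of all windows. These are matches of letters within a short window and say nothing of binding.

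The first question was how the pathway's transcripts changed as the cells differentiated. In untreated cells 29 of the 30 genes rose from day 0 to day 6 and 1, Cpt1a, fell; in that comparison 80.5% of 13157 tested genes were called in either direction, 41.5% higher and 39% lower. In IL-13 pre-treated cells 29 again rose and Cpt1a fell, against a background of 80.8% called, 40.6% higher and 40.3% lower. The median log2 fold change of the 30 genes was 2.80 in untreated and 2.79 in IL-13 pre-treated cells, against 0.04 and 0.00 over all tested genes. For each of the 30 genes the day 0 and day 6 libraries did not overlap in either arm. Overlap was not counted over all tested genes, so that number has no background to be read against. Calls are at an adjusted p under 0.05 of edgeR's quasi-likelihood test, adjusted over all tested genes by Benjamini-Hochberg. Levels below are CPM (counts scaled to library size, with TMM factors), which compare libraries but not genes of different length.

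**Figure D1:**
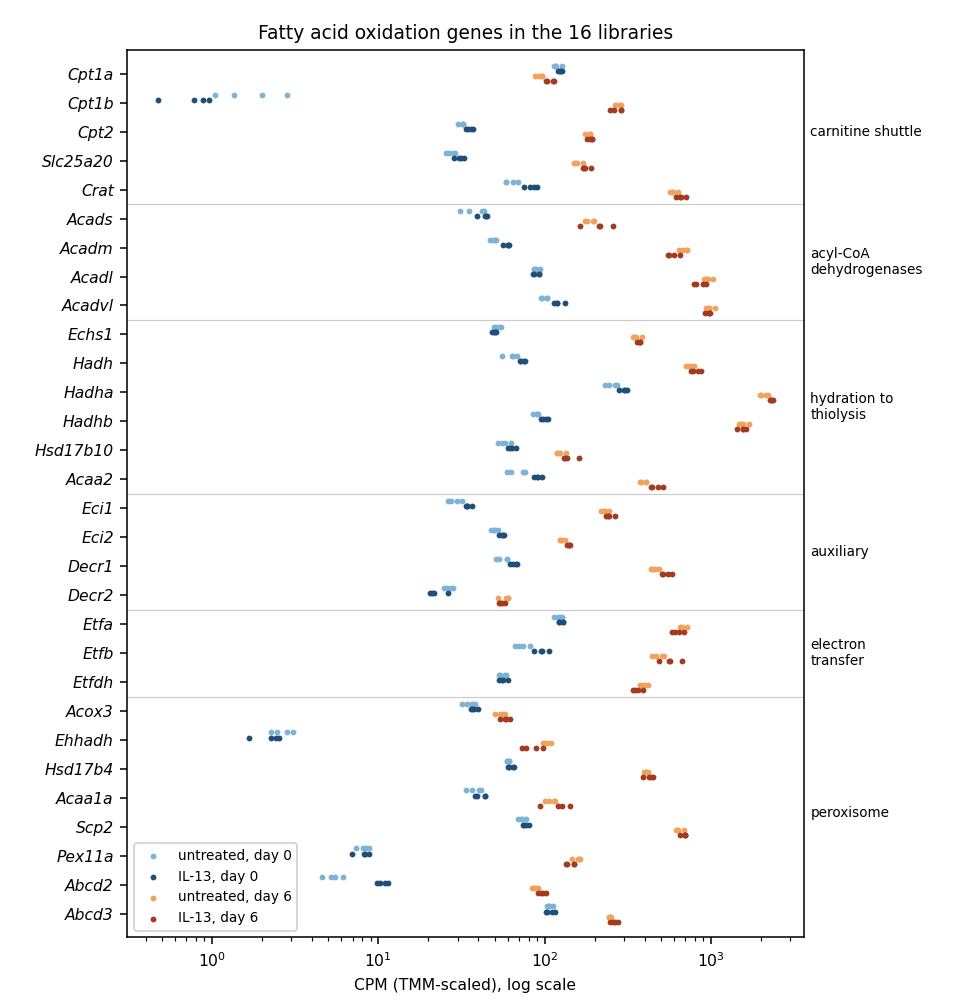
Levels of the 30 genes in each of the 16 libraries, in CPM on TMM-scaled library sizes (log axis); each point is 1 library, coloured by group, and genes are ordered by role. The day 6 points lie to the right of the day 0 points for every gene but Cpt1a, and Cpt1b and Ehhadh start from the lowest levels at day 0.

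In the carnitine shuttle Cpt1a and Cpt1b, 2 of the 3 forms of carnitine palmitoyltransferase 1, moved in opposite directions. Cpt1b, the form known from muscle and brown fat, stood at 1.997, 1.35, 1.04 and 2.84 CPM in the 4 untreated day 0 libraries and at 266, 270.1, 286 and 282 CPM at day 6. That is a rise of 150.0-fold (log2 7.23, SE 0.15, edgeR adjusted p = 2.03e-19). Its day 0 level rests on few reads, 39, 22, 18 and 53 counts, so the size of the fold is less certain than its direction. With IL-13 the libraries stood at 0.779, 0.886, 0.475 and 0.958 CPM at day 0 (13, 14, 8 and 15 counts) and 249, 288, 289 and 262 CPM at day 6, which is a 349.8-fold rise (log2 8.45, SE 0.17). In the annotation 81.4% of the exonic bases of Cpt1b overlap Gm44502 on the same strand, and the tables gave Gm44502 between 0 and 43 counts per library.

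Cpt1a, the form known from liver and many other tissues, stood at 116, 114, 128 and 118 CPM in untreated libraries at day 0 and at 96.7, 95.8, 92.8 and 87.8 CPM at day 6. It fell by 1.27-fold (log2 -0.35, SE 0.05, edgeR adjusted p = 6.30e-06). With IL-13 it stood at 127, 124, 124 and 119.6 CPM and then at 114, 102, 113 and 103 CPM, 1.15-fold lower (log2 -0.20, SE 0.05, edgeR adjusted p = 0.00267). All day 6 libraries lay below all day 0 libraries of the same arm.

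Compared per gene length, in TPM, Cpt1a was the main form at day 0 and Cpt1b at day 6. Untreated cells held Cpt1a at 102 ± 4.49 TPM and Cpt1b at 2.01 ± 0.975 TPM at day 0 (SD, n = 4), and 69.3 ± 4.33 and 261 ± 3.64 TPM at day 6. The share of Cpt1b in the sum of both went from 1.91% ± 0.853 (SD, n = 4) to 79.0% ± 1.20, and with IL-13 from 0.794% ± 0.226 to 76.2% ± 1.92. For both arms the two-sided exact permutation p was 0.0286, the smallest that 4 against 4 libraries can give (70 arrangements), and 0.0381 after adjustment over the 4 share comparisons. The sum of both forms was 97.0 to 109 TPM in untreated day 0 libraries and 326 to 334 TPM at day 6. Both sums and shares use the lengths behind the deposited TPM, and for Cpt1a that length is 0.59 of its annotated exons, against 1.05 for Cpt1b. On the lengths of all annotated exons, a setting added with the data known, the share of Cpt1b went from 3.34% ± 1.47 to 87.0% ± 0.815 in untreated cells and from 1.40% ± 0.397 to 85.05% ± 1.35 with IL-13 (SD, n = 4).

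Cpt1c, the form known from the brain, is not among the 30 genes. It fell from 43.5 ± 4.00 to 5.26 ± 0.942 CPM in untreated cells (SD, n = 4; log2 -3.05, SE 0.11, edgeR adjusted p = 2.97e-16) and from 38.7 ± 2.52 to 4.03 ± 0.481 CPM with IL-13 (log2 -3.26, SE 0.11). Per length it stood between Cpt1a and Cpt1b at day 0, at 28.7 ± 3.08 TPM in untreated cells. With Cpt1c in the sum, also added with the data known, the share of Cpt1b went from 1.496% ± 0.651 to 78.3% ± 1.31 in untreated cells.

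**Figure D2:**
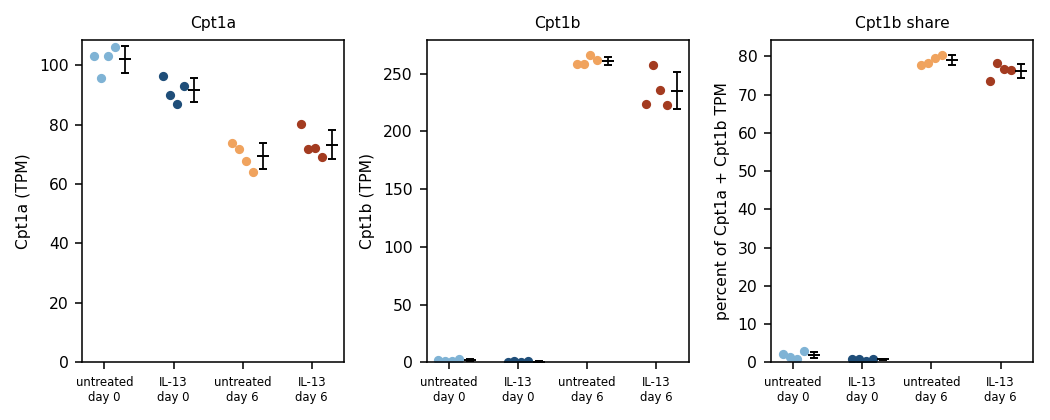
Cpt1a and Cpt1b in TPM and the share of Cpt1b in their sum, by group; points are single libraries and the bars beside them the mean and SD of 4. The share lies at or below 2.99% in all day 0 libraries and between 73.6% and 80.4% in all day 6 libraries.

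The other genes of the shuttle rose together. Crat, the carnitine acetyltransferase that buffers acetyl-CoA, went from 62.9 ± 5.17 to 593 ± 27.95 CPM in untreated cells (SD, n = 4), a 9.44-fold rise. Cpt2, which returns the acyl group to CoA in the matrix, went from 31.6 ± 0.946 to 184 ± 5.54 CPM, 5.81-fold. Slc25a20, the carnitine-acylcarnitine carrier of the inner membrane, went from 27.3 ± 1.55 to 157 ± 8.80 CPM, 5.76-fold. The rises with IL-13 were 7.90-fold, 5.31-fold and 5.71-fold.

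Of the acyl-CoA dehydrogenases, which open each turn of the cycle, all 4 rose, by a median log2 of 3.36 in untreated and 3.13 in IL-13 pre-treated cells. Acadm, for medium chains, stood at 49.98, 50.7, 47.2 and 49.2 CPM in untreated day 0 libraries and 722, 679, 646 and 718 CPM at day 6. This 14.03-fold rise (log2 3.81, SE 0.06, edgeR adjusted p = 2.11e-21) was the largest of the 4, and with IL-13 it was 9.93-fold. Acadl, for long chains, went from 88.8 ± 3.42 to 957 ± 50.1 CPM (10.8-fold), and Acadvl, for very long chains, from 99.9 ± 4.57 to 979.6 ± 51.00 CPM (9.80-fold). Acads, for short chains, rose least, from 37.8 ± 5.92 to 187 ± 11.4 CPM (4.96-fold). Opposite-strand exons of Dvl2 overlap 42.9% of the exonic bases of Acadvl, and no source used here says if counting took account of the strand.

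The long-chain steps from hydration to thiolysis are carried by the trifunctional protein, whose alpha subunit is Hadha and whose beta subunit, the thiolase, is Hadhb. Hadhb stood at 89.4, 91.5, 89.9 and 84.99 CPM in untreated day 0 libraries and at 1484, 1566, 1523 and 1689 CPM at day 6, a 17.6-fold rise (log2 4.14, SE 0.07, edgeR adjusted p = 7.50e-22). Hadha stood at 243, 263, 272 and 230.0 CPM and then at 1960.3, 2000.0, 2144 and 2215 CPM, an 8.25-fold rise (log2 3.04, SE 0.07). Both genes of the shared start region printed above rose, Hadhb by the larger fold. With IL-13 the folds were 15.4 for Hadhb and 7.70 for Hadha. Of the 50-base stretches of Hadhb, 19.7% also occur in Gm13910 or Gm9108.

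Hadh, the 3-hydroxyacyl-CoA dehydrogenase of shorter chains, rose 11.97-fold in untreated cells, from 63.1 ± 5.46 to 754 ± 38.2 CPM. Echs1, the short-chain enoyl-CoA hydratase, rose 6.82-fold, from 52.2 ± 2.38 to 356 ± 19.01 CPM. Acaa2, the mitochondrial 3-ketoacyl-CoA thiolase, rose 5.77-fold, from 67.97 ± 8.45 to 392 ± 17.7 CPM. Hsd17b10, which acts on branched short acyl chains and is also a subunit of mitochondrial RNase P, rose least of these genes, 2.18-fold, from 56.9 ± 4.23 to 124 ± 7.46 CPM.

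The 4 auxiliary enzymes, which handle double bonds, all rose. Decr1, the mitochondrial 2,4-dienoyl-CoA reductase, rose 8.19-fold in untreated cells, from 55.7 ± 4.36 to 456 ± 21.3 CPM, and Eci1, the mitochondrial enoyl-CoA isomerase, rose 8.002-fold, from 28.7 ± 2.47 to 229.6 ± 10.7 CPM. Decr2, the peroxisomal reductase, rose 2.19-fold, from 26.5 ± 1.45 to 58.02 ± 3.93 CPM, and Eci2, an isomerase found in both organelles, 2.53-fold, from 50.1 ± 2.22 to 127 ± 4.63 CPM. The 3 genes that take electrons from the dehydrogenases rose by close folds: Etfa 5.58, Etfb 6.63 and Etfdh, the ubiquinone oxidoreductase, 7.08. Their untreated day 6 levels were 675 ± 32.9, 482 ± 36.3 and 395 ± 17.7 CPM. For Etfb, 58.2% of exonic bases overlap Gm45233 on the same strand, which had 0 to 14 counts per library.

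The 8 peroxisomal genes all rose, over a wide range of folds. Ehhadh, the bifunctional enzyme that hydrates and dehydrogenates straight chains, stood at 2.25, 3.08, 2.47 and 2.84 CPM (44, 50, 43 and 53 counts) in untreated day 0 libraries and at 109, 99.9, 97.7 and 103 CPM at day 6. Its rise was 38.6-fold (log2 5.27, SE 0.12, edgeR adjusted p = 8.95e-20), second among the 30 genes to that of Cpt1b. Pex11a, which drives peroxisome elongation and division, stood at 8.40, 8.81, 7.31 and 8.14 CPM and then at 159, 162, 146 and 164 CPM, 19.3-fold higher (log2 4.27, SE 0.08). Abcd2, a transporter of very long chain acyl-CoA into peroxisomes, stood at 5.48, 6.16, 5.18 and 4.60 CPM and then at 84.7, 87.95, 91.7 and 84.4 CPM, 16.3-fold higher (log2 4.03, SE 0.08). The related transporter Abcd3, already at 107 ± 3.39 CPM at day 0, rose 2.30-fold to 246 ± 2.21 CPM.

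Scp2, whose products include a peroxisomal thiolase and a lipid transfer protein, rose 8.76-fold, from 72.99 ± 3.53 to 639 ± 32.2 CPM, and Hsd17b4, the bifunctional enzyme of branched and very long chains, 6.73-fold, from 60.4 ± 0.776 to 406 ± 8.94 CPM. Acaa1a, a peroxisomal thiolase, rose 2.87-fold, from 37.97 ± 3.51 to 109 ± 7.13 CPM. Acox3, an oxidase of branched chains, had the smallest rise of the 29 genes in untreated cells, 1.55-fold, with 34.3, 31.7, 38.04 and 36.5 CPM at day 0 and 55.5, 58.02, 54.1 and 50.6 CPM at day 6 (edgeR adjusted p = 1.75e-08). In 50-base stretches, 29.7% of Scp2 also occurs in Scp2-ps2 and 12.9% of Acaa1a in Acaa1b or Dennd2a, so reads of these genes may be shared with those copies.

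**Figure D3:**
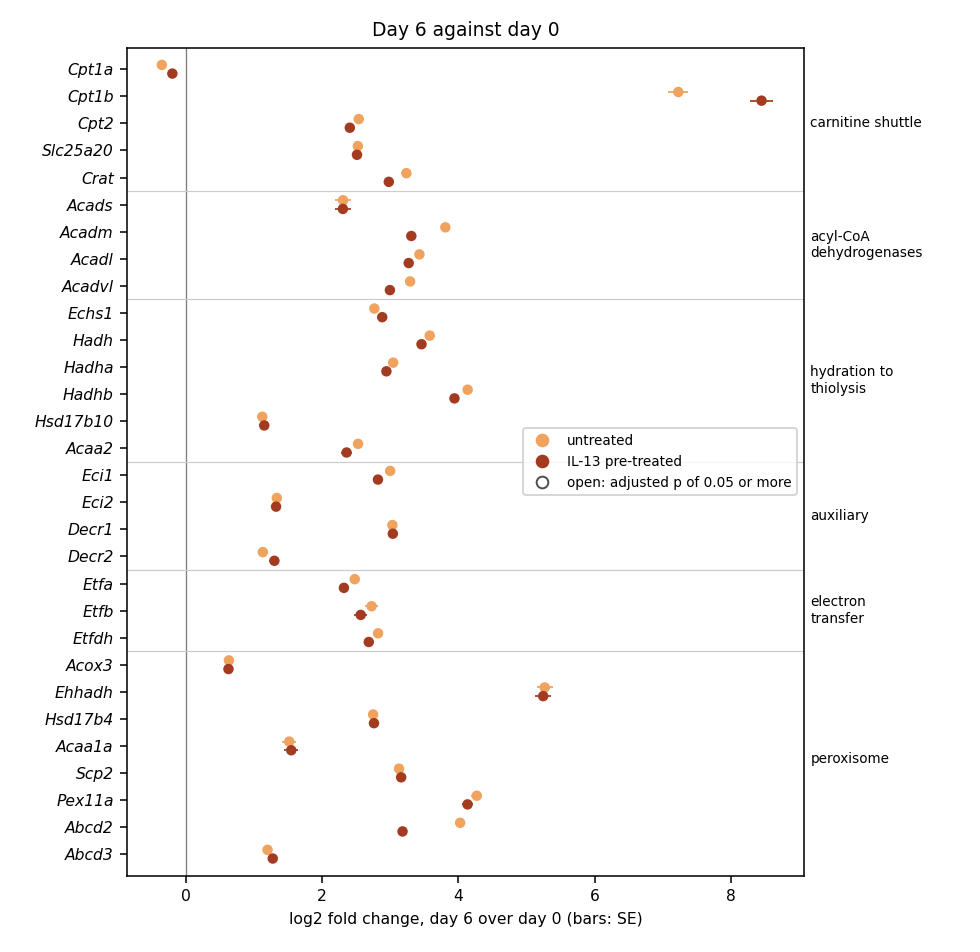
Log2 fold change of day 6 over day 0 for the 30 genes in untreated and IL-13 pre-treated cells, ordered by role; bars are SE and filled points passed the test. Cpt1b lies farthest to the right in both arms, Cpt1a is the only gene left of 0, and the points of the 2 arms lie close together for most genes.

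Compared per length, the highest of the 30 in untreated cells at day 6 were Acadl at 1524 ± 77.9 TPM, Etfb at 1320.5 ± 77.4 TPM, Etfa at 1175 ± 53.1 TPM and Acadvl at 1164 ± 49.7 TPM (SD, n = 4). Etfb and Etfa differed by more than either SD, while Etfa and Acadvl differed by less. At day 0 the highest were Etfa at 244 ± 20.4 TPM and Etfb at 230.3 ± 15.5 TPM, which differed by less than their SD. The lowest at day 6 was Acox3 at 15.1 ± 1.11 TPM. Summed over the 30 genes, untreated libraries held 2131 to 2233 TPM at day 0 and 12843 to 13694 TPM at day 6, and IL-13 pre-treated libraries 2068 to 2206 TPM and 12155 to 12842 TPM. The lengths behind these levels stood in 1 constant ratio to all annotated exons for 27 of the 30 genes, and were shorter against that ratio for Cpt1a, Eci1 and Decr2.

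Other genes of the pathway and of its organelles were counted in the same comparison. Of 25 further mitochondrial genes of acyl-CoA metabolism, 23 were tested in untreated cells and 20 rose and 2 fell by day 6 (median log2 1.52). Those with the smallest p were Pccb (2.69) and Pcca (2.66), the subunits of propionyl-CoA carboxylase, and Acat1 (2.81), the acetoacetyl-CoA thiolase. The 2 that fell were Cpt1c, given above, and Oxct1, which starts the use of ketone bodies, from 642 ± 38.97 to 442 ± 8.90 CPM (SD, n = 4; log2 -0.54, SE 0.06). Of 18 further peroxisomal oxidation genes, 16 were tested and 15 rose (median log2 1.87). They included Cat (2.71), the catalase that removes the hydrogen peroxide of peroxisomal oxidation, and Lonp2 (2.11), the peroxisomal protease. All 17 tested peroxins and membrane proteins of peroxisome assembly rose (median log2 1.98), with Pex16 at 4.31, Pxmp4 at 2.41 and Pex19 at 1.72.

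A list of 20 general mitochondrial genes (import, channels, chaperones and cristae) rose throughout, 20 of 20, with a median log2 of 1.40; Immt was at 2.19, Cs at 2.42 and Timm44 at 1.78. Of 19 regulators of the pathway, 16 rose and 0 fell (median log2 2.13). Acacb, the acetyl-CoA carboxylase that makes the malonyl-CoA blocking the shuttle, rose by log2 5.98, from 10.3 ± 1.43 to 649.5 ± 27.9 CPM (SD, n = 4). The coactivators Ppargc1b (5.80) and Lpin1 (2.78) rose as well. In every one of these lists the share of genes that rose was above the 41.5% of all tested genes called higher; no test of the lists was made.

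The second question was what IL-13 pre-treatment alone did to these genes at day 0. With IL-13, 13 of the 30 genes rose, 2 fell and 15 did not pass the test, while 47.9% of 12274 tested genes were called, 23.7% higher and 24.2% lower. The median log2 fold change was 0.14 for the 30 genes and -0.01 for all tested genes. Changes were small but for Abcd2 and Cpt1b. Groups did not overlap for 14 of the 30 genes. Such genes were not counted over all tested genes, so this number has no background to be read against.

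Abcd2 rose most, from 5.48, 6.16, 5.18 and 4.60 CPM in untreated libraries to 10.3, 9.81, 10.98 and 11.5 CPM with IL-13, 1.97-fold (log2 0.98, SE 0.11, edgeR adjusted p = 4.74e-06). All IL-13 libraries lay above all untreated ones. It was the only one of the 8 peroxisomal genes that passed the test; the log2 fold changes of the other 7 lay between -0.27 (Ehhadh) and 0.11 (Acaa1a). Cpt1b fell by 2.38-fold (log2 -1.25, SE 0.33, edgeR adjusted p = 0.00675), on the day 0 levels given above, and the groups did not overlap. Its share of both forms rests on the same few counts, so it is no second line of evidence. That share was 0.794% with IL-13 against 1.91% untreated (two-sided exact permutation p = 0.0286, adjusted 0.0381), with all IL-13 libraries below all untreated ones. With Cpt1c in the sum that call was lost, at 0.642% against 1.496% (two-sided exact permutation p = 0.0571).

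Acaa2 stood at 59.04, 73.95, 76.3 and 62.6 CPM in untreated and 91.7, 89.9, 97.1 and 86.4 CPM in IL-13 libraries, 1.33-fold higher (edgeR adjusted p = 3.63e-04). Crat stood at 58.7, 64.7, 69.3 and 58.7 CPM untreated and at 81.9, 86.1, 89.8 and 75.4 CPM with IL-13, 1.31-fold higher (edgeR adjusted p = 1.87e-04). Etfb stood at 66.3, 69.8, 81.2 and 73.6 CPM untreated and at 95.2, 96.8, 107 and 86.9 CPM with IL-13, 1.31-fold higher (edgeR adjusted p = 3.28e-04). For none of these 3 did the groups overlap. Etfa and Etfdh, the partners of Etfb, did not pass the test, at log2 0.04 (SE 0.05) and -0.004 (SE 0.06).

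Smaller rises passed the test for Acadm (1.20-fold), Acadvl (1.20-fold), Eci1 (1.20-fold), Hadha (1.18-fold), Decr1 (1.17-fold), Hadh (1.15-fold), Hadhb (1.11-fold), Cpt2 (1.11-fold) and Eci2 (1.10-fold). Decr2 fell by 1.20-fold, from 24.7, 27.96, 27.3 and 26.01 to 26.1, 20.4, 21.6 and 21.1 CPM (edgeR adjusted p = 0.016), and here 1 IL-13 library lay within the untreated range. Cpt1a, at 0.04 (SE 0.05), and Acadl, at -0.01 (SE 0.05), did not pass. On the TPM scale the mean of Cpt1a was lower with IL-13, 91.5 ± 4.02 against 102 ± 4.49 TPM, so its direction depends on the scale. The same held for 3 genes called higher, Cpt2 (47.1 against 48.8 TPM), Hadhb (48.3 against 49.8 TPM) and Eci2 (31.95 against 33.4 TPM), and for 12 uncalled genes, Cpt1a included. Calls of Cpt2 and Eci2 were lost when any of 6 of the 8 libraries was left out, that of Hadhb without IL-13 library 1 and that of Decr2 without IL-13 library 2.

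A list of 20 genes with nuclear or intron-retaining transcripts moved with IL-13 and stands beside these results. Of the 19 tested, 0 rose and 16 fell at day 0, and 0 rose and 14 fell at day 6. Their mean log2 CPM, used as a nuclear RNA index, was 6.12 ± 0.249 (SD, n = 4) in untreated and 5.59 ± 0.0599 in IL-13 libraries at day 0, and 6.54 ± 0.208 and 5.86 ± 0.224 at day 6, with every IL-13 library below every untreated one on each day (two-sided exact permutation p = 0.0286 on each day, the smallest possible). The list was chosen with earlier results of these data known, so this p describes the separation and is no independent test of it. With that index as a covariate, 2 of the 30 genes were higher and 0 lower at day 0, Abcd2 (log2 0.92, adjusted p = 0.0134) and Acadm (log2 0.37, adjusted p = 0.0294), and Cpt1b was at 2.85e-05. Of all 12274 tested genes, 442 were then higher and 397 lower. Without untreated libraries 1 and 4, which had the highest index (a setting added with the data known), 6 rose (Abcd2, Crat, Etfb, Acaa2, Acadm and Acadvl) and 1, Decr2, fell, and Cpt1b was at log2 -0.63 (edgeR adjusted p = 0.186). In that fit 1811 of all 12416 tested genes were higher and 1674 lower. The index separates the arms, so its part and that of IL-13 cannot be told apart.

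Scaling also bore on the direction of the small changes. With total count scaling in place of TMM the median of all tested genes moved to -0.13, 27.1% of called genes were higher in place of 49.5%, and 6 of the 30 genes were called higher and 4 lower. Over all 12274 tested genes 1682 were then called higher and 4519 lower. The 6 were Abcd2, Acaa2, Crat, Etfb, Acadvl and Hadha, and the 4 were Cpt1b, Decr2, Echs1 (log2 -0.20) and Acadl (-0.13). An offset for transcript length brought Etfb from 0.39 to 0.20 and Acaa2 from 0.41 to 0.26, and Hadha from 0.23 to 0.36.

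**Figure D4:**
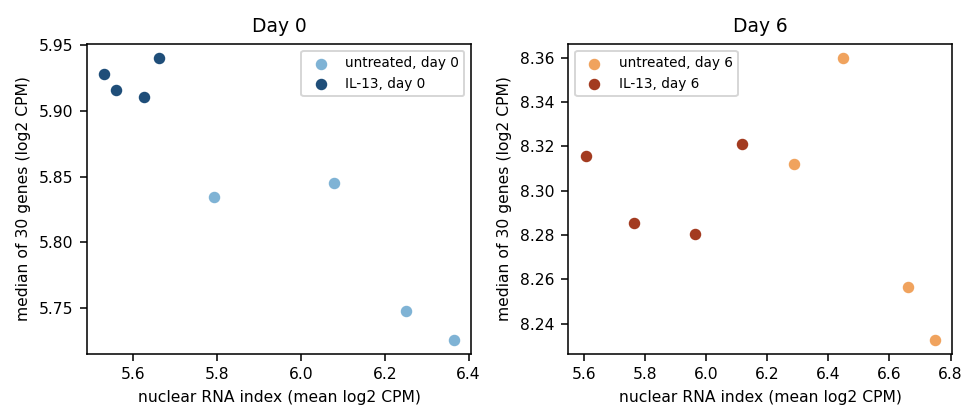
Median level of the 30 genes (log2 CPM) against the nuclear RNA index (mean log2 CPM of 19 genes) for the 8 libraries of each day; each point is 1 library. IL-13 libraries lie to the left of untreated ones on both days; at day 0 they also lie higher, at 5.91 to 5.94 against 5.73 to 5.85, while at day 6 the medians overlap, at 8.28 to 8.32 against 8.23 to 8.36.

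At day 6 the question was whether the pre-treated cells still differed. With IL-13, 3 of the 30 genes rose, Acaa2, Decr1 and Cpt1a, and 0 fell, against 6.6% of 12352 tested genes called, 2.25% higher and 4.35% lower. At an unadjusted p under 0.05, 3325 of all tested genes passed. The median log2 fold change of the 30 was 0.11, against 0.01 over all tested genes. It depended on the setting: 0.02 against -0.08 with total count scaling, and 0.01 against -0.005 with the nuclear RNA covariate. On the TPM scale the means of 8 uncalled genes differed in the opposite direction. The summed TPM of the 30 genes was 12155 to 12842 with IL-13 and 12843 to 13694 in untreated libraries. Groups did not overlap for 5 genes, the 3 that were called and Hadha and Eci2. Here too no such count was made over all tested genes.

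Acaa2 stood at 372, 382, 408 and 406 CPM in untreated and 437, 483, 515 and 442 CPM in IL-13 libraries at day 6, 1.21-fold higher (log2 0.27, SE 0.07, edgeR adjusted p = 0.0378). Decr1 stood at 436, 444, 460.4 and 484 CPM untreated and at 515, 550.5, 584 and 507 CPM with IL-13, 1.19-fold higher (log2 0.26, SE 0.06, edgeR adjusted p = 0.0378). Cpt1a stood at 96.7, 95.8, 92.8 and 87.8 CPM untreated and at 114, 102, 113 and 103 CPM with IL-13, 1.17-fold higher (log2 0.22, SE 0.06, edgeR adjusted p = 0.0473). Each of these calls was lost on leaving out single libraries, that of Cpt1a for any of the 8, and those of Acaa2 and Decr1 for 6 of 8, untreated library 4 and IL-13 library 1 being the exceptions. When the index was a covariate, 0 of the 30 genes and 0 of all tested genes passed, though 1042 of all genes had an unadjusted p under 0.05; Acaa2 was then at log2 -0.02. Without untreated libraries 1 and 2, which had the highest index at day 6, 0 of the 30 genes passed in edgeR, and 1190 of all genes had an unadjusted p under 0.05. Of all 12549 tested genes 0 were then called higher and 2 lower.

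Acadm and Ehhadh had the lowest log2 fold changes with IL-13 at day 6 and did not pass the test. Acadm stood at 647, 561, 553 and 603 CPM against 722, 679, 646 and 718 CPM untreated (log2 -0.21, SE 0.06, edgeR adjusted p = 0.0631), with 1 IL-13 library inside the untreated range. Ehhadh stood at 97.9, 73.3, 77.1 and 89.3 against 109, 99.9, 97.7 and 103 CPM (log2 -0.27, SE 0.08, edgeR adjusted p = 0.0732), again with 1 library inside. DESeq2 called both lower, with adjusted p = 0.0147 for Acadm and 0.0332 for Ehhadh, and so did total count scaling, under which 0 of the 30 genes were higher. Cpt1b, at 272 ± 19.98 against 276 ± 9.33 CPM (SD, n = 4), did not pass, and its share of both forms was 76.2% against 79.0% (two-sided exact permutation p = 0.0857, adjusted 0.0857), with ranges that overlap.

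IL-13 library 1 at day 6 stood apart from the other 3 in several genes, picked here after their values were seen. It was the lowest of the 4 for Acads (163, 212, 259 and 215 CPM), for Acaa1a (94.3, 119.8, 142 and 127 CPM) and for Etfb (489, 563, 674 and 563 CPM). It was the highest for Acadl (937, 816, 790.4 and 892 CPM), for Etfdh (392, 339, 351 and 367 CPM) and for Acadm and Ehhadh, given above. Its nuclear RNA index, 6.12, was the highest of the IL-13 libraries at day 6, where the others lay between 5.61 and 5.96; the part of the index in these differences was not tested. Without this library 5 of the 30 genes rose and 2 fell: Acads, Etfb, Acaa2, Decr1 and Acaa1a, and Acadm and Ehhadh. Calls grew over all genes as well, to 988 higher and 1340 lower of 12476 tested, from 278 and 537 of 12352 with all 8 libraries.

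**Figure D5:**
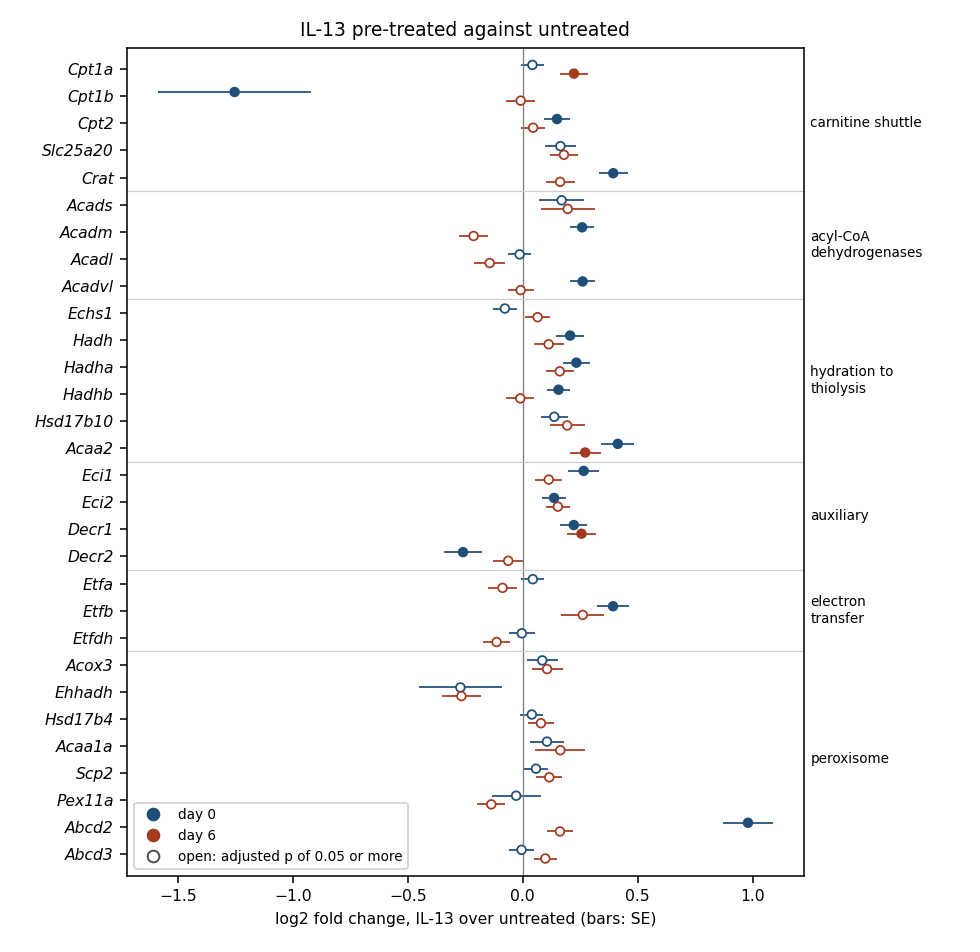
Log2 fold change of IL-13 pre-treated over untreated cells for the 30 genes at day 0 and at day 6, ordered by role; bars are SE and filled points passed the test. Most points lie within 0.5 of 0; the 2 that do not are Abcd2 and Cpt1b at day 0, on opposite sides.

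Whether the effect of IL-13 differed between the days was tested as an interaction in 1 fit of all 16 libraries, so a difference can depart slightly from that of the 2 separate fits. The effect was higher at day 6 than at day 0 for 1 of the 30 genes and lower for 3, against 8.06% of 13157 tested genes called, 3.12% higher and 4.95% lower. For Abcd2 the log2 effect went from 0.98 at day 0 to 0.16 at day 6, a difference of -0.85 (SE 0.11, edgeR adjusted p = 1.30e-05); at day 6 it stood at 84.7, 87.95, 91.7 and 84.4 CPM untreated and 102, 97.8, 95.5 and 91.2 CPM with IL-13, with ranges that overlap. For Acadm it went from 0.26 to -0.21, a difference of -0.50 (SE 0.08, edgeR adjusted p = 3.69e-04). Both calls held on leaving out any of the 16 libraries.

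For Acadvl the effect went from 0.26 to -0.01, a difference of -0.30 (SE 0.08, edgeR adjusted p = 0.0278), and that call was lost for 15 of the 16 left-out libraries, untreated library 3 of day 0 being the exception. For Cpt1b it went from -1.25 to -0.01, a difference of 1.22 (SE 0.30, edgeR adjusted p = 0.013), which was lost without IL-13 library 3 of day 0. The 2 IL-13 comparisons use separate libraries, while each shares its libraries with the day comparisons, so no likeness between those was computed.

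The further lists moved as follows with IL-13, beside 23.7% of all tested genes called higher and 24.2% called lower at day 0, and 2.25% and 4.35% at day 6. Of the 20 general mitochondrial genes, 14 rose and 0 fell at day 0 (median log2 0.23), and 2 rose and 0 fell at day 6 (0.13). Of 17 peroxins, 4 rose and 4 fell at day 0 (0.02), and 0 passed at day 6. Of the 17 regulators tested at day 0, 5 rose and 3 fell (0.09), among them Ppargc1b (1.03) higher and Lpin1 (-0.51) lower; of 19 tested at day 6, 0 passed. Of the further mitochondrial oxidation genes, 5 of 22 rose and 4 fell at day 0, and of the further peroxisomal ones 4 of 13 rose and 1 fell; none of either passed at day 6.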

How the data were processed

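Polyadenylated RNA was sequenced from 16 libraries in 4 groups of 4, and groups were taken from the sample labels. The authors deposited 2 tables, 1 per day, with a whole-number read count per gene and library, which was the value tested. RPKM and TPM were deposited by the authors as well; TPM was used for levels per gene length and RPKM as an alternative. A further deposited column of CPM on an adjusted library size, per the file headers, was classed as a score and was not used. Per the submitters' processing notes the build was mm10. The aligner, counter, annotation and strand setting were not given in the sources used. No column of values was left unmapped (0).

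Counts were tested with edgeR 4.0.16 in R 4.3.3 (quasi-likelihood, robust, TMM scaling, filter at a minimum count of 10 and minimum total of 15), with p-values adjusted over all genes tested and calls under 0.05. IL-13 comparisons used their own 8 libraries; day comparisons and the interaction used all 16. Printed CPM use TMM factors over all 16 libraries, and the SE of a log2 fold change is its size over the square root of F. Cpt1b shares were tested by exact permutation. Gene overlaps came from GENCODE M21, whose exon union matched the length in the tables by a constant ratio for 27 of the 30 genes, Cpt1a, Eci1 and Decr2 being the exceptions. Library totals of 15253031 to 18112087 counts leave counting error mainly on Cpt1b and Ehhadh at day 0. Alternatives were DESeq2 1.42.0, total count scaling, no filter, a replicate block, a nuclear RNA covariate, a length offset, other sets of libraries and leaving out each library. No pair of libraries agreed within sampling noise (chi-square per degree of freedom 3.81 to 25.2). The fits were tested on simulated counts with the same spread for every gene. Of changes of log2 0.5, the interaction recovered 23.2% and the other comparisons 71.6% to 75.8%. Of changes of log2 1, they recovered 89.7% and 94.9% to 96.9%. False calls made up 2.34% to 6.43% of calls, so an interaction that did not pass may be a small change missed. The 30 genes and the other lists were chosen with earlier results of these data known. All 30 are named, and of each pathway list up to 3 genes with the smallest p in the untreated day comparison. Cpt1c, Oxct1, Tmem26, Cox7a1, Cox8b, Prdm16, Elovl3, Ppargc1a and Col1a1 were named after their values were seen.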

Additional observations from a re-analysis of the deposited data

Results flagged for a closer look

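At day 6, 3 of the 30 genes had 1 IL-13 library far from the other 3, measured by its gap over the group's range. Hsd17b10 was at 162 CPM in IL-13 library 3, with the others at 132 to 137 CPM. Eci2 was at 136 CPM in IL-13 library 4, with the others at 140.3 to 141 CPM. Scp2 was at 656 CPM in IL-13 library 2, with the others at 694 to 699 CPM. Over the 120 groups of 4 examined, chance flags about 1 group in 20.

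For 4 genes the effect of IL-13 differed between the days in edgeR's interaction test: Cpt1b by 1.22 on the log2 scale, Acadm by -0.50, Acadvl by -0.30 and Abcd2 by -0.85. Cpt1b had 8 to 53 counts per library at day 0, and the Acadvl call was lost in 15 of 16 fits that left out 1 library.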

How the results depend on the processing

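The day comparisons gave 29 genes higher and 1 lower in both arms under every alternative run and every left-out library. For IL-13 at day 0, 13 genes were higher and 2 lower. Total count scaling gave 6 and 4, the nuclear RNA covariate 2 and 0, and leaving out untreated libraries 1 and 4 gave 6 and 1. Leaving out 1 library gave 10 to 15 higher and 1 to 2 lower. Over all tested genes 2912 were higher and 2969 lower. These settings gave 1682 and 4519, 442 and 397, and 1811 and 1674. Without 1 library it was 2453 to 3339 higher and 2370 to 3253 lower. For IL-13 at day 6, where 3 were higher and 0 lower, DESeq2, the length offset and a fit of all 16 libraries each called 2 lower, total count scaling called 0 higher and 2 lower, the nuclear RNA covariate 0 higher, and leaving out untreated libraries 1 and 2 gave 0 higher; leaving out 1 library gave 0 to 5 higher and 0 to 2 lower. Of all called genes at day 6, 4.90% were higher under total count scaling in place of 34.1%. Over all tested genes 278 were higher and 537 lower at day 6. DESeq2 gave 583 and 853, the length offset 431 and 631, and the fit of all 16 libraries 482 and 923. Total count scaling gave 53 and 1028, the covariate 0 and 0, and leaving out untreated libraries 1 and 2 gave 0 and 2. Without 1 library it was 4 to 988 higher and 55 to 1340 lower. In the difference between the days, where 1 was higher and 3 lower, the nuclear RNA covariate called 6 lower, and leaving out 1 library gave 0 to 1 higher and 2 to 4 lower. For the same difference the share of called genes that were higher was 38.6% with edgeR and TMM, 51.4% with DESeq2, 50.9% with total count scaling and 49.2% with the length offset. Over all tested genes that difference had 410 higher and 651 lower, and 813 and 1271 with the nuclear RNA covariate. Without 1 library it was 409 to 696 higher and 418 to 747 lower. Estimates of called genes crossed 0 only with the nuclear RNA covariate, for Cpt1b at day 0 (2.85e-05) and Acaa2 at day 6 (-0.024). Neither then passed the test (edgeR adjusted p = 0.9997 and 0.961), so neither was called in the other direction. The cause was not tested. Replicate numbers did not pair the libraries: correlations of deviations between same-numbered libraries ran from -0.083 to 0.22, not all above 0.1, and libraries did not always correlate best with their own number. With the replicate block, IL-13 at day 6 had 10 genes higher and 2 lower, at day 0 it had 15 and 2, and the difference between the days had 1 and 4. Over all tested genes the block gave 1342 and 1470 at day 6, 3244 and 3274 at day 0, and 619 and 989 for the difference. Leaving out 1 library left the share of Cpt1b with 3 against 4 libraries, whose smallest p is 0.0571, so no call was possible; the difference in share ran from -1.42 to -0.761 percentage points for IL-13 at day 0, from 76.7 to 77.5 for day 6 against day 0 untreated, and from 74.7 to 76.3 with IL-13. RPKM in place of TPM cannot move the share, since both scale a library by 1 factor. With Cpt1c in the sum the difference at day 0 was -0.854 points (exact permutation p = 0.0571), so that call was lost; on the lengths of all annotated exons no call of the share changed. At 8 to 53 counts for Cpt1b and 28 to 53 for Ehhadh per day 0 library, counting error is larger for these 2 genes at day 0 than for the rest.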

Other observations

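The proportion of the 2 subunits of the trifunctional protein differed between the days on the TPM scale, where a ratio within a library does not depend on its scaling. Hadha over Hadhb was 2.04 to 2.28 in untreated day 0 libraries and 2.16 to 2.38 with IL-13, and 0.965 to 1.06 and 1.06 to 1.24 at day 6, so that the ranges of the days did not overlap in either arm. Etfa over Etfb was 0.885 to 1.19 in untreated and 0.767 to 0.896 in IL-13 libraries at day 0, and 0.817 to 0.947 and 0.546 to 0.890 at day 6, with ranges that overlap between the days in both arms and between the arms on both days. These ratios were not tested. They rest on the lengths in the deposited tables, and the length offset brought the IL-13 effect on Etfb at day 0 from 0.39 to 0.20 on the log2 scale.

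Acacb, whose product makes the malonyl-CoA that blocks Cpt1a and Cpt1b, stood at 9.84 ± 0.475 CPM (SD, n = 4) at day 0 and 612 ± 59.01 CPM at day 6 with IL-13, and its IL-13 effect did not pass edgeR's test on either day. Of the 9 brown and beige markers, 8 were tested and 7 rose and 1, Tmem26, fell by day 6 in each arm. Ucp1 was at 0 in every day 0 library and at 64.8 ± 13.9 TPM in untreated and 77.3 ± 20.7 TPM in IL-13 libraries at day 6, and Dio2 was at or near 0 TPM throughout. Tmem26 was at 8.56 ± 1.015 TPM in untreated and 76.0 ± 6.73 TPM in IL-13 libraries at day 0 (SD, n = 4), where it was called higher, and at 2.84 ± 0.582 and 3.25 ± 0.454 TPM at day 6. The sum of the 9 markers at day 0 was 11.4 to 14.6 TPM in untreated and 71.0 to 85.5 TPM in IL-13 libraries. Tmem26 made up most of that sum in both arms. With IL-13 the day 0 means of 4 other markers were lower. Cox7a1 was at 1.18 against 2.40 TPM, Cox8b at 0 against 0.555, Prdm16 at 0.839 against 1.19 and Elovl3 at 0.0959 against 0.271. Ppargc1a was near 0, at 0.00809 against 0 TPM.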
